A study of Ovis aries with 30 samples.

Results

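The lung of adult sheep was compared with the lung of sheep fetuses at day 90 of gestation, across all genes measured. The comparison took the 5 adult lung arrays and the 5 fetal day 90 lung arrays of a series of 30 arrays, which also holds lung at 10 weeks after birth and kidney at the same 3 ages, 5 arrays in each group. The arrays were chosen by their sample titles: adult lung AD-204, AD-286, AD-287, AD-297 and AD-299, and fetal lung 10A, 14A, 14B, 26B and 80B. The labels give the species (Ovis aries), the tissue and the age, no breed or treatment, and no age for the adults beyond that word. Each array is an Affymetrix bovine expression array hybridised with labelled RNA of whole frozen tissue, so a value is a mean over all cells of the piece. In such tissue, more cells of a type and more RNA per cell of that type cannot be told apart.

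The mature lung exchanges gas across alveoli. These are lined by flat type I cells, which lie against the capillaries, and by type II cells, which secrete surfactant, a film of lipid and proteins that keeps the air spaces open. At mid-gestation the lung of the fetus is still building its branched tubes from epithelium that grows into mesenchyme under signals such as FGF10, hedgehog and BMP. It is filled with liquid that the epithelium secretes, and this flow turns to absorption through the epithelial sodium channel around birth. The adult lung also holds resident macrophages, lymphocytes and an airway epithelium that clears particles with mucus and cilia.

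The deposited values were log2 expression, from 2.44 to 15.23, with array medians between 6.57 and 6.81. All levels are these log2 values. A change is the adult mean minus the fetal mean, in log2 units, given with its standard error from limma. A gene "rose" or "fell" from fetal to adult lung only where its adjusted p was below 0.05. Where all arrays are listed, the order is 10A, 14A, 14B, 26B and 80B for fetal lung and AD-204, AD-286, AD-287, AD-297 and AD-299 for adult lung. The adult and fetal lungs come from different animals, and since the labels do not say how arrays relate to animals, p-values measure the spread between these arrays. The titles of fetal arrays 14A and 14B carry the same number. These arrays correlated at 0.996 across genes and were counted as separate ones.

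Fetal arrays 26B and 80B stood apart from the other 3 before any comparison. A list of 80 measured genes of liver proteins had a mean level of 10.04 in 26B and of 8.53 in 80B. The other fetal arrays had means of 6.25 to 6.56 and the adults 6.24 to 6.58. Alpha-fetoprotein (AFP), a plasma protein of the fetal liver, read 8.67, 7.79, 7.18, 13.24 and 12.74 in the fetal arrays and 7.68, 5.70, 5.08, 4.68 and 5.07 in the adult arrays. Arginase (ARG1) of the urea cycle read 6.75, 6.0, 5.92, 12.87 and 11.98, against 3.74 to 5.04 in adults. The ALB probe set used here, for albumin, did not follow them and read 10.55 to 11.01 in the fetal and 10.66 to 10.91 in the adult arrays. Correlations between 2 arrays across genes ran from 0.987 to 0.993 among adults, from 0.995 to 0.996 among fetal arrays 10A, 14A and 14B, and down to 0.906 with 26B. In the lung comparison, counts over gene lists are therefore given with their value without 26B and 80B where it differs. For many named genes that value is given where their call changes or their change moves by over 1.5 times. It is not given for every such gene, so a change printed alone may differ without these arrays. The lung marker surfactant protein C (SFTPC) was lowest in 26B, at 9.30, and at least 10.98 in the other lung arrays. NKX2-1, SCGB1A1 and FOXJ1, which also mark lung epithelium, were not measured by a probe set of their own. The part of the liver transcripts in the other differences of array 26B was not tested.

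Adult and fetal lung differed in 3444 of 9155 genes (37.6%), 1889 higher (20.6%) and 1555 lower (17.0%) in the adult. Among them 759 rose and 433 fell by at least 1 log2, or 8.29% and 4.73% of genes, and 36 rose and 10 fell by at least 4. The 5 adult and 5 fetal values did not overlap in 2579 genes (28.2%), 1528 higher (16.7%) and 1051 lower (11.5%) in adults. The median change of all genes was 0.01. When each array was centred on its median the split turned: 3628 genes were called (39.6%), with 1572 genes higher (17.2%) and 2056 lower (22.5%), or 43.3% of calls higher in place of 54.9%. Of the calls above, 3127 were also made in the same direction after centring. Without 26B and 80B 3839 genes were called (41.9%), 1975 higher (21.6%) and 1864 lower (20.4%). The 3079 genes called in the same direction both ways were 89.4% of the calls with 5 fetal arrays and 80.2% of those with 3, and 0 were called in opposite directions. Of 1098 called genes with a second probe set, that set changed in the same direction in 86.1%, and in 93.4% of the 362 that changed by at least 1. Among 1815 genes with a second set that were not called, the share was 62.9%.

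The largest rises and falls were ranked among called genes whose adult and fetal arrays did not overlap and which were also called without 26B and 80B. UCP3, a mitochondrial uncoupling protein, was 4.41, 4.50, 4.48, 4.49 and 4.59 in the fetal arrays and 10.25, 11.43, 10.69, 10.97 and 10.28 in the adult arrays. The fetal arrays lay close together at a dim level, and the adult mean was 75.0-fold higher (6.23 ± 0.25, adjusted p = 9.58e-11). PON1, an esterase that hydrolyses lipid peroxides, rose by 6.16 ± 0.40 (adjusted p = 1.43e-08), and LPO, the peroxidase of airway secretions, rose by 6.0 ± 0.22 (adjusted p = 4.26e-11). CYP2B6 and CYP4B1, cytochromes P450 that oxidise foreign compounds, rose by 5.08 and 5.04. The chemokines CCL3, GRO1, CXCL8 and CCL26 rose by 5.92, 5.33, 4.89 and 4.98, and CXCR1, the neutrophil receptor for CXCL8, rose by 5.08. The remaining genes among the 15 largest such rises were the protease inhibitor SPINK1 (5.71), the acute phase protein SAA3 (5.44), HSD17B13 of lipid droplets (5.19), the lymphocyte signalling regulator RGS1 (5.09) and the immunoglobulin M heavy chain IGHM (4.84).

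The largest such fall was in DLK1. This imprinted membrane protein of growing tissue was 12.28, 12.62, 12.37, 13.07 and 12.72 in the fetal arrays and 6.89, 5.83, 6.75, 5.93 and 6.12 in the adult arrays. The lowest fetal array stood at 12.28 and the highest adult array at 6.89, a fall of 6.31 ± 0.31 (adjusted p = 7.91e-10). A second DLK1 probe set averaged 10.52 in fetal and 5.83 in adult lung. NUDT11, a phosphohydrolase, fell by 4.91, the ubiquitin hydrolase UCHL1 of neurons by 4.19, SNAP25 of synaptic vesicle fusion by 3.80 and the heparin-binding growth factor MDK by 3.76. ARG1, CPS1, APOC3 and ITIH2, which the liver expresses, fell by 4.42, 4.26, 3.92 and 3.86. Without 26B and 80B their changes were -1.94, -2.28, -2.58 and -1.47. Array 10A, which was kept, read higher than 14A and 14B for ARG1 (6.75 against 6.0 and 5.92) and AFP.

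Genes of surfactant and alveolar type II cells were higher in the adult. Of 22 measured members 15 rose and 0 fell, with a median change of 1.18. Without 26B and 80B 13 rose and 0 fell (median 1.11). Surfactant protein D (SFTPD), a collectin that binds microbes, was 6.44, 6.75, 6.96, 6.03 and 6.41 in the fetal arrays and 10.66, 10.69, 10.78, 10.60 and 10.61 in the adult arrays. The fetal arrays spanned 6.03 to 6.96 and the adult arrays 10.60 to 10.78, a rise of 4.15 ± 0.16 (adjusted p = 5.72e-11). SFTPA1, the other collectin of the surfactant, was 6.84, 6.83, 6.77, 7.17 and 6.95 in the fetal arrays and 9.67, 9.87, 9.36, 9.54 and 9.16 in the adult arrays, and it rose by 2.61 ± 0.14. The other 2 SFTPA1 probe sets averaged 6.56 and 5.68 in fetal lung and 8.12 and 10.07 in adult lung. SFTPB and SFTPC are the hydrophobic proteins that spread the surfactant film. SFTPB was 9.75, 9.98, 9.80, 8.20 and 9.81 in the fetal arrays and 11.67, 11.54, 11.55, 11.79 and 11.75 in the adult arrays and rose by 2.15 ± 0.32 (adjusted p = 7.67e-05). SFTPC was 11.59, 11.51, 11.37, 9.30 and 10.98 in the fetal arrays and 12.47, 12.45, 12.44, 12.50 and 12.57 in the adult arrays and rose by 1.54 ± 0.32 (adjusted p = 0.00146), or 1.0 without 26B and 80B. For all 4 surfactant proteins the adult arrays lay above every fetal array, and 26B was the lowest fetal array for SFTPB, SFTPC and SFTPD.

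The machinery around surfactant moved unevenly. ABCA3, which pumps surfactant lipid into lamellar bodies, rose by 1.21 ± 0.14. The protease CTSH, which trims SFTPB and SFTPC, rose by 1.82 ± 0.22, the cell surface mucin MUC1 rose by 1.88 ± 0.25, the homeodomain protein HOPX rose by 1.16 ± 0.16 and the transcription factor CEBPD rose by 2.09 ± 0.12. DMBT1, a scavenger receptor of mucosal fluids, and SFTA2, a surfactant-associated secreted protein, rose by 1.17 and 1.23 (0.66 for SFTA2 without 26B and 80B), but the DMBT1 set marks several transcripts and the next set of DMBT1 did not rise. CLDN18, a tight junction protein, was 5.01, 4.27, 5.33, 4.04 and 4.93 in the fetal arrays and 5.37, 5.31, 5.82, 7.02 and 6.02 in the adult arrays. Its groups overlapped, adult array AD-297 was the highest, and its rise of 1.19 (adjusted p = 0.0297) was not called without 26B and 80B (adjusted p = 0.0826), nor without AD-297, AD-299, 14A or 26B alone. The phosphate transporter SLC34A2 rose by 0.44 and was not called without those arrays either (adjusted p = 0.124), and it was not called without adult AD-204 or AD-286. SCD, a fatty acid desaturase, rose by 0.70 (adjusted p = 0.0409) and by 1.18 without 26B and 80B. Its call was lost without any 1 adult array and without 10A, 14A or 14B (adjusted p from 0.0608 to 0.105), and after centring. The other 7 members were not called, with changes from -0.07 to 0.68. Among them was LAMP3 of lamellar bodies (0.68, adjusted p = 0.12), lowest in array 26B.

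**Figure D1:**
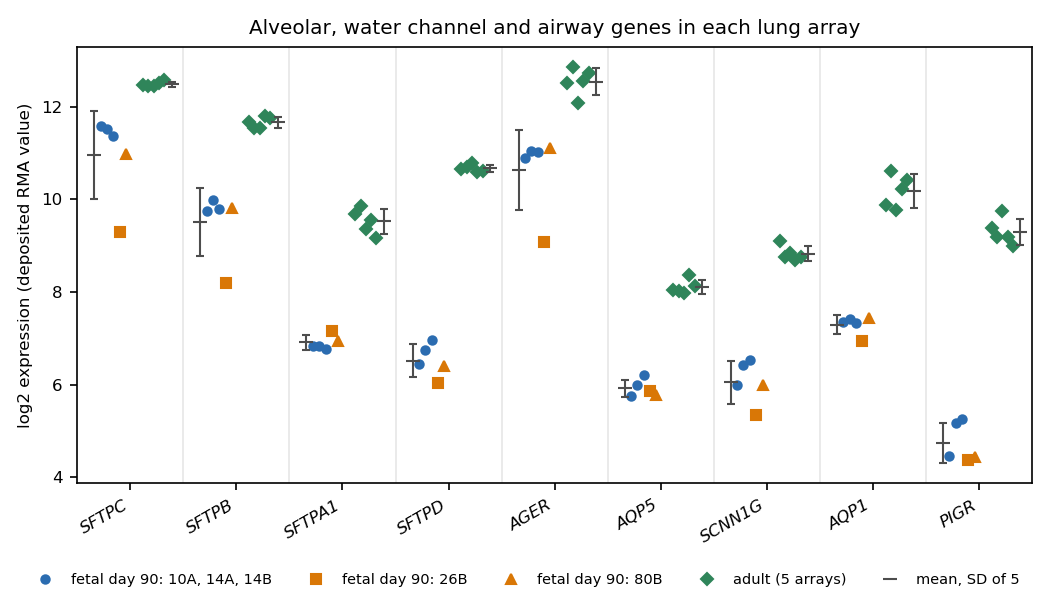
Log2 expression (vertical axis) of 9 genes of alveolar cells, water channels and airway (horizontal axis) in each lung array, with circles, squares and triangles for fetal day 90 arrays and diamonds for the 5 adult arrays. Grey marks give the mean and SD of 5 arrays. All adult points lie above all fetal points for each gene, and array 26B (square) is lowest for SFTPC, SFTPB and AGER.

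Type I cell genes and several genes of water and sodium transport were higher in the adult. Of 18 measured type I genes 13 rose and 0 fell (median 1.26). Without 26B and 80B 12 rose and 1, the basement membrane collagen COL4A4, fell (median 1.07). AGER, the receptor that type I cells carry on their basal side, was 10.90, 11.05, 11.03, 9.08 and 11.10 in the fetal arrays and 12.50, 12.86, 12.07, 12.55 and 12.72 in the adult arrays. Its rise of 1.91 ± 0.31 was 1.55 without 26B and 80B. The water channel of their apical side, AQP5, was 5.76, 5.99, 6.21, 5.87 and 5.77 in the fetal arrays and 8.04, 8.03, 7.98, 8.37 and 8.13 in the adult arrays, and it rose by 2.19 ± 0.13. The adhesion molecule ICAM1 and the receptor GPRC5A rose by 1.97 and 1.54.

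All 3 measured subunits of the epithelial sodium channel, which draws liquid out of the air space, rose. SCNN1G was 6.0, 6.41, 6.53, 5.35 and 5.98 in the fetal arrays and 9.11, 8.76, 8.84, 8.68 and 8.75 in the adult arrays, a rise of 2.77 ± 0.18. SCNN1B and SCNN1A rose by 2.08 ± 0.17 and 1.83 ± 0.18. The kinase SGK1, which keeps the channel at the membrane, rose by 1.12 ± 0.20. The water channels AQP1 of capillaries, AQP4 and AQP3 rose by 2.88, 2.51 and 1.49. Values of AQP1 were 7.35, 7.42, 7.33, 6.94 and 7.44 in the fetal arrays and 9.87, 10.62, 9.76, 10.23 and 10.41 in the adult arrays. In the list of liquid and ion transport 8 of 23 measured genes rose and 0 fell, and without 26B and 80B 12 rose and 1 fell (median 0.42 and 0.45). With all arrays 34.8% of the list were called, beside 37.6% of all genes. Of all genes 20.6% rose and 17.0% fell, or 21.6% and 20.4% without 26B and 80B. The fall was in SLC12A2, the cotransporter that loads chloride for secretion, with a change of -1.13 without those arrays and of -0.74 with all 5 (adjusted p = 0.126). It was also called without 26B alone. It read 7.80, 7.63, 7.97, 5.70 and 7.98 in the fetal arrays and 6.68, 6.34, 7.04, 6.73 and 6.59 in the adult arrays, and array 26B read below every adult array. Genes called higher in that setting and not with all arrays were the carbonic anhydrase CA2 (1.62 against 0.52, adjusted p = 0.507), the chloride transporter CLCN3 (0.56), the scaffold NHERF1 (0.70) and the channel-activating protease PRSS8 (0.33). The chloride channel CFTR read 10.06 to 10.68 in fetal and 10.31 to 10.84 in adult arrays and was not called (0.27, adjusted p = 0.262). Fitted on the compared arrays alone without 26B and 80B, it rose by 0.45 (limma, adjusted p = 0.0171). With all its probe sets averaged the change was -0.11 (adjusted p = 0.555). With all arrays the 15 members that were not called had changes from -0.74 to 0.64.

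Airway genes rose in 10 of 19 measured members and fell in 0 (median 1.26), with the same counts without 26B and 80B. PIGR, which carries immunoglobulin across the epithelium, was 4.45, 5.17, 5.26, 4.38 and 4.44 in the fetal arrays and 9.38, 9.19, 9.74, 9.19 and 9.0 in the adult arrays. The highest fetal value was 5.26 and the lowest adult value 9.0, a rise of 4.56 ± 0.20 (adjusted p = 2.52e-10). Genes of cilia also rose: TEKT1 by 1.42, CFAP126 by 1.19, TPPP3 by 1.93 and CCDC39, which sets the repeat of the axoneme, by 2.05 ± 0.37. The secreted trefoil protein TFF3 (0.69, adjusted p = 0.0973) and the mucin chaperone AGR2 (1.26, adjusted p = 0.127) were not called. AGR2 spread from 8.37 to 12.36 among adults and was called without AD-204.

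Endothelial genes were mixed. Of 30 measured, 13 rose and 2 fell (median 0.30), the same counts as without 26B and 80B. EPAS1, the oxygen-sensing factor of endothelium, was 8.65, 8.51, 8.46, 9.10 and 8.64 in the fetal arrays and 10.99, 11.24, 11.33, 11.13 and 10.85 in the adult arrays and rose by 2.44 ± 0.15. The carbonic anhydrase CA4 of lung capillaries rose by 1.24, the angiopoietin receptor TEK rose by 0.72 and the TGF-beta co-receptor ENG rose by 0.80. CD34 and the endothelin receptor EDNRB fell by 0.50 and 0.76. The transcription factor FLI1 was not called (0.32, adjusted p = 0.147). Of 20 genes of smooth muscle and pericytes 6 rose and 1 fell: the intermediate filament DES by 1.89, the calcium pump regulator PLN by 1.53, CNN1 by 1.96 and TAGLN by 1.32 rose, and CALD1 fell by 0.67. In that list 5 rose without 26B and 80B, and 35% were called with all arrays, beside 37.6% of all genes. Among 11 mesothelial genes 4 rose and 0 fell, or 36.4% called beside 37.6% of all genes. The rises included the peptidase DPP4 (1.19) and KRT19 (1.50, or 0.98 without 26B and 80B). This list also holds C3, which is given below with the complement genes and rose more.

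Of the signals that shape the branching lung, 9 of 24 measured genes fell and 0 rose (median -0.46). Of all genes 17.0% fell and 20.6% rose. The other 15 members were not called, and the share called was 37.5%, beside 37.6% of all genes. Without 26B and 80B 15 fell (median -0.74), beside 20.4% of all genes. Also 15 fell without 26B alone, and 26B had the lowest fetal mean of this list. FOXP2, a repressor of distal airway epithelium, was 9.75, 9.59, 9.59, 7.21 and 9.0 in the fetal arrays and 5.99, 6.05, 5.41, 5.35 and 5.79 in the adult arrays. It fell by 3.31 ± 0.37 (adjusted p = 5.18e-06), and 26B was the lowest fetal array. FGF10, which draws the buds outward, was 7.15, 7.35, 7.17, 5.83 and 7.65 in the fetal arrays and 5.25, 5.83, 5.70, 6.12 and 5.91 in the adult arrays, and FGFR2, which encodes its receptor, fell with it (1.27 ± 0.27 and 1.10 ± 0.20). Leaving out adult AD-204, adult AD-297, fetal 10A or 26B made 1 member of the list a rise. The groups of FGF10 overlapped only through 26B. BMP4 fell by 1.57, the hedgehog transducer SMO by 1.43 and TGFB3 by 1.59. The Notch ligand JAG1 (0.30, adjusted p = 0.232) and the repressor FOXP1 (-0.36, adjusted p = 0.115) were not called, and FOXP1 fell by 0.49 without 26B and 80B.

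The list of imprinted growth genes was lower in the adult. Of 22 measured members 15 fell and 1 rose (median -1.08), and the counts were the same without 26B and 80B. Beside DLK1, the paternally expressed growth factor IGF2 was 12.27, 12.43, 12.35, 11.66 and 12.12 in the fetal arrays and 7.94, 8.93, 7.29, 7.60 and 8.15 in the adult arrays. It fell by 4.19 ± 0.27 (adjusted p = 1.58e-08). That probe set is the brightest of 4 and its name marks several transcripts. Of the other sets, 1 averaged 8.14 in fetal and 6.46 in adult lung. The remaining ones averaged 7.15 and 7.14, and 5.19 and 5.04. Without multi-transcript sets IGF2 was not called (-0.01). MEST was 11.78, 11.64, 11.70, 12.07 and 11.79 in the fetal arrays and 8.54, 9.15, 8.35, 9.02 and 9.66 in the adult arrays and fell by 2.85 ± 0.19. Its other sets differed by -0.43, -2.23 and -1.97. PEG10, a gene derived from a retrotransposon, was 10.84, 10.78, 10.72, 10.82 and 11.18 in the fetal arrays and 7.80, 8.10, 7.81, 7.49 and 8.22 in the adult arrays and fell by 2.98 ± 0.15. The noncoding RNA MEG3, from the same cluster as DLK1, fell by 2.99 ± 0.21. PEG3 fell by 3.66, NNAT fell by 2.66, IMPACT fell by 1.55, PLAGL1 fell by 1.51 and MAGEL2 fell by 1.32. MAGED2, which the list and its counts hold although it is not an imprinted gene, fell by 1.08. PEG3 read 8.94, 8.92, 8.94, 11.12 and 9.85 in fetal arrays, higher in 26B and 80B than in the other 3, and without them it fell by 3.04. NNAT showed the same order (11.15, 11.15, 11.02, 14.01 and 12.37), and it fell by 1.82 without them. The growth inhibitor CDKN1C fell by 1.07, the IGF2 scavenger IGF2R fell by 0.99, the signalling subunit GNAS fell by 0.48 and SGCE fell by 0.58. NAP1L5 rose by 0.41. Its call was lost when its probe sets were averaged (0.20). The 6 members that were not called had changes from -0.25 to 0.27.

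Of 25 measured genes of the IGF axis and other fetal growth regulators 11 fell and 1 rose (median -0.38), and 2 rose and 11 fell without 26B and 80B. IGF2BP1 and IGF2BP3, RNA-binding proteins of fetal tissue that bind the IGF2 messenger, were lower in every adult array. IGF2BP1 was 8.24, 8.17, 8.20, 7.74 and 7.32 in the fetal arrays and 5.10, 4.87, 4.71, 4.74 and 4.54 in the adult arrays and fell by 3.14 ± 0.18 (adjusted p = 4.87e-09). IGF2BP3 was 10.13, 10.36, 10.41, 10.91 and 10.47 in the fetal arrays and 8.02, 6.07, 7.22, 6.39 and 5.94 in the adult arrays, a fall of 3.73 ± 0.33, and a second probe set averaged 6.22 in fetal and 3.48 in adult lung. MDK read 12.19, 12.20, 12.36, 10.55 and 12.26 in the fetal and 8.16, 7.93, 8.58, 8.08 and 8.01 in the adult arrays, and 26B was the lowest fetal array. The heparan sulphate proteoglycan GPC3 fell by 1.37 and the IGF-binding protein IGFBP7 rose by 0.33, a call lost after centring. IGFBP4 was not called with all arrays (0.20, adjusted p = 0.354) and rose by 0.41 without 26B and 80B (adjusted p = 0.0296).

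**Figure D2:**
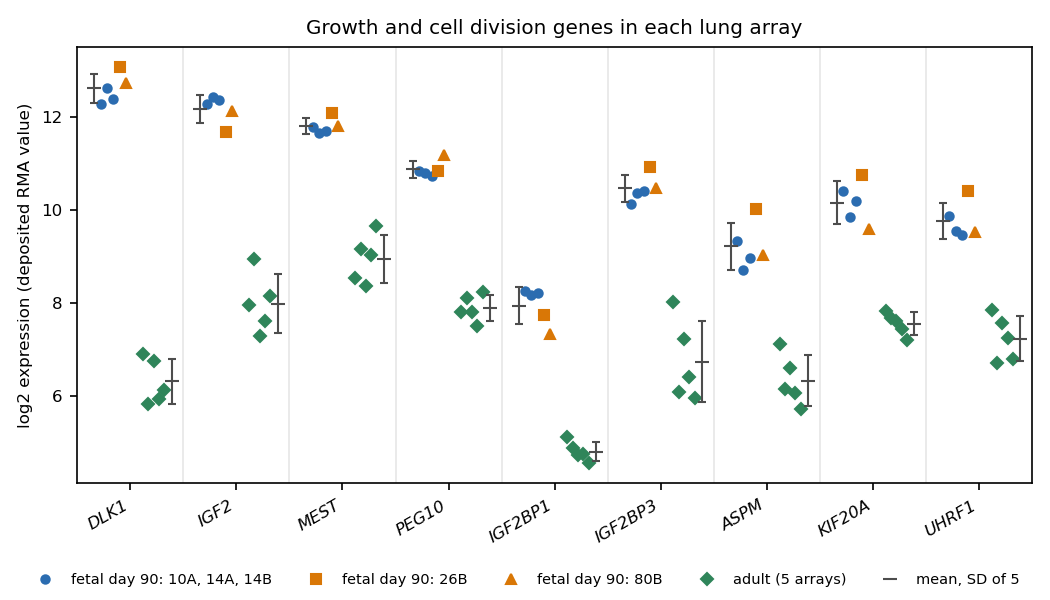
Log2 expression (vertical axis) of 9 growth and cell division genes (horizontal axis) in each lung array, with circles, squares and triangles for fetal day 90 and diamonds for adults. Grey marks give the mean and SD of 5 arrays. Every fetal point lies above every adult point of the same gene, with DLK1 the largest difference at 6.31 log2.

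Cell division genes were lower in the adult almost throughout. Of 46 measured mitosis genes 42 fell and 0 rose (median -1.67), and 39 fell without 26B and 80B (median -1.42). The mitotic kinesin KIF20A was 10.40, 9.84, 10.19, 10.74 and 9.58 in the fetal arrays and 7.83, 7.67, 7.62, 7.43 and 7.20 in the adult arrays and fell by 2.60 ± 0.21 (adjusted p = 1.20e-07). The spindle gene ASPM was 9.32, 8.71, 8.97, 10.02 and 9.03 in the fetal arrays and 7.11, 6.15, 6.59, 6.06 and 5.71 in the adult arrays and fell by 2.89 ± 0.26. UBE2C, which marks cyclins for destruction, fell by 2.92, ECT2 of cytokinesis fell by 2.49, CKS2 fell by 1.82 and CKS1B fell by 1.37. Cohesin subunit RAD21 (-0.22, adjusted p = 0.14), BUB1 (-0.33, adjusted p = 0.214) and KIF2C (-0.34, adjusted p = 0.0982) were not called. DNA replication genes fell in 29 of 40 measured, with 0 higher (median -0.76), and the counts were the same without the 2 arrays (median -0.59). The nucleotide enzyme TYMS fell by 2.15, the helicase subunit MCM4 by 1.56, the licensing factor CDC6 by 1.58 and the clamp loader RFC3 by 1.12. The mean of the replication list was 9.10 in array 26B, 8.35 to 8.46 in the other fetal arrays and 7.62 to 7.89 in adults.

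Chromatin genes changed as 13 falls and 1 rise among 24 measured (median -0.38). UHRF1, which brings DNMT1 to newly copied DNA, was 9.86, 9.55, 9.46, 10.39 and 9.51 in the fetal arrays and 7.84, 6.71, 7.56, 7.24 and 6.78 in the adult arrays and fell by 2.53 ± 0.23. The methyltransferases DNMT3A and DNMT1 fell by 1.71 ± 0.15 and 1.21 ± 0.17. EZH2 and EZH1, alternative catalytic subunits of the polycomb complex, went opposite ways. EZH2 was 11.95, 11.67, 11.71, 12.42 and 11.46 in the fetal arrays and 10.72, 10.10, 10.35, 9.98 and 9.76 in the adult arrays and EZH1 9.41, 9.57, 9.62, 9.32 and 9.39 in the fetal arrays and 10.52, 10.83, 10.31, 10.37 and 10.39 in the adult arrays, a fall of 1.66 ± 0.22 and a rise of 1.02 ± 0.14. The RNA-binding list had 19 falls and 1 rise among 45 genes (median -0.28), 22 and 1 without 26B and 80B, and 26 and 1 after centring. HNRNPL and ELAVL1 fell by 1.42 and 1.01, MBNL2, a regulator of splicing in differentiating cells, by 1.03, and QKI rose by 0.91. Of 77 ribosomal and translation genes 1 rose and 3 fell, namely NOP16 (0.44) and, downward, RPL37 (-0.95), FBL (-0.65) and NCL (-0.44), or 1 and 4 without 26B and 80B and 1 and 7 after centring.

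**Figure D3:**
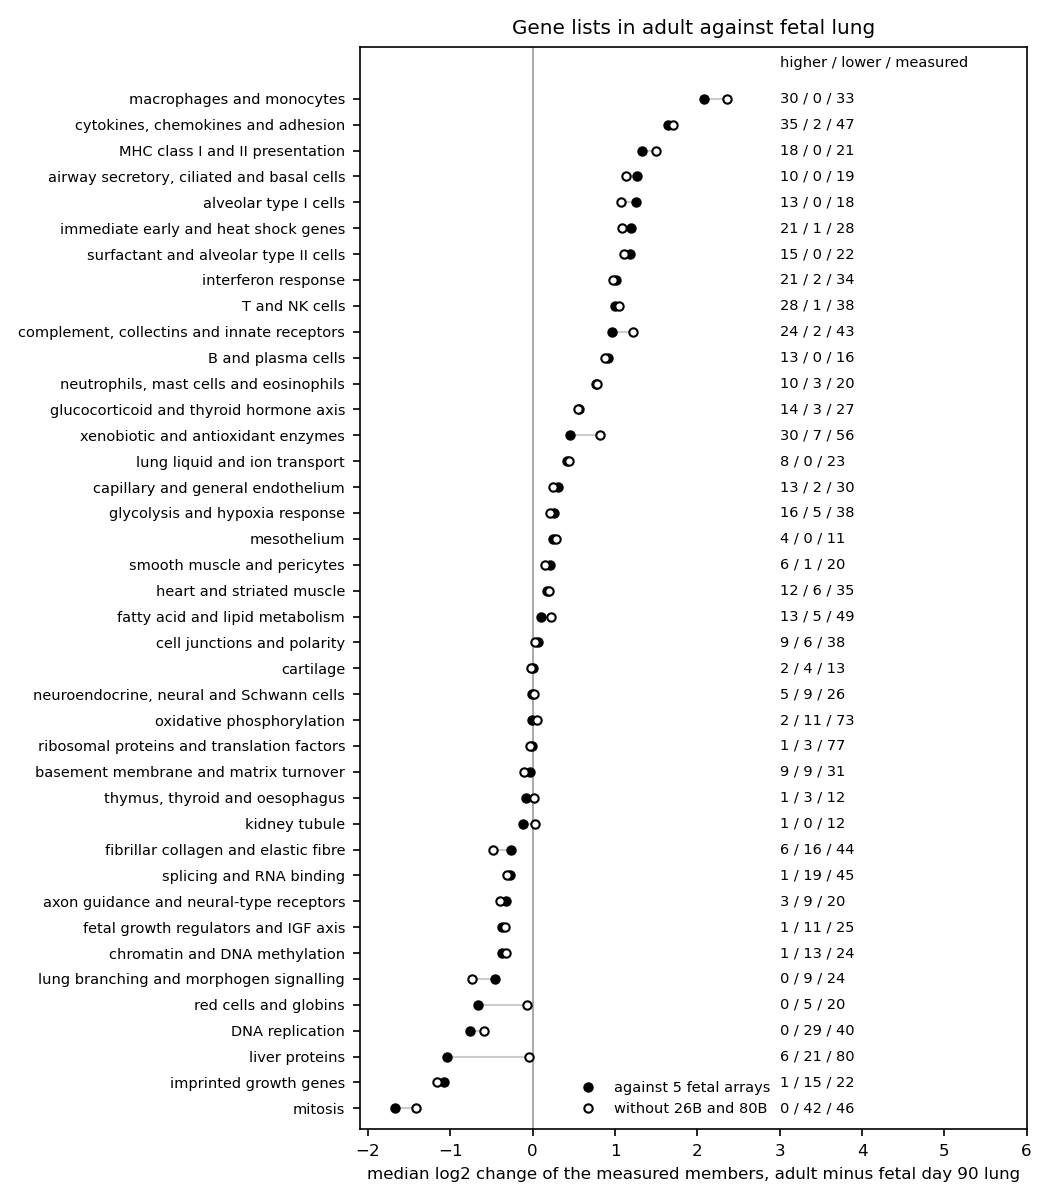
Median log2 change of the measured members (horizontal axis) for 40 gene lists (vertical axis), adult minus fetal lung, filled for all 5 fetal arrays and open without 26B and 80B, with the numbers called higher, lower and measured at the right. The macrophage list lies highest at 2.08 and the mitosis list lowest at -1.67, and the liver list moves from -1.04 to -0.05 without the 2 arrays.

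Matrix genes moved in both directions. Of 44 genes for fibrillar collagens and elastic fibres 16 fell and 6 rose (median -0.26), and 21 and 6 without 26B and 80B (median -0.48). COL1A1 was 13.48, 13.53, 13.42, 12.44 and 13.37 in the fetal arrays and 12.40, 11.67, 11.84, 11.72 and 11.87 in the adult arrays and fell by 1.35 ± 0.20. COL1A2 and COL3A1 fell by 1.01 and 0.82, the collagen chaperone SPARC by 0.83, and the proteoglycan VCAN of loose fetal matrix by 1.74. The small proteoglycans LUM and DCN, the elastic fibre protein EFEMP1 and the crosslinking enzyme LOXL4 rose by 0.63, 0.84, 1.23 and 2.27, with 0.76 for EFEMP1 without 26B and 80B. Basement membrane and turnover genes had 9 members higher and 9 lower among 31, and 9 and 11 without 26B and 80B. The inhibitors TIMP4 and TIMP2, the activator PLAU and the protease CTSL rose by 2.44, 1.19, 2.22 and 2.34, while the laminin linkers NID1 and NID2 and the collagen COL4A1 fell by 0.64, 0.91 and 0.70.

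The cartilage collagen COL2A1 was high in the fetus on 1 probe set. COL2A1 was 11.80, 11.78, 11.46, 8.99 and 11.37 in the fetal arrays and 5.74, 5.54, 7.69, 6.18 and 5.87 in the adult arrays. It fell by 4.88 ± 0.49 (adjusted p = 1.56e-06), 26B was the lowest fetal array and AD-287 the highest adult. The other 3 COL2A1 probe sets were dim and differed by 0.04, -0.23 and 0.08. CNMD, a matrix protein of cartilage that blocks vessel growth, was 10.25, 10.08, 9.98, 8.12 and 10.06 in the fetal arrays and 7.08, 6.72, 7.33, 7.10 and 6.52 in the adult arrays and fell by 2.75 ± 0.32. The minor fibril collagen COL11A1 fell by 3.13. Of 13 cartilage genes 4 fell and 2 rose, the latter the proteoglycans ACAN (0.76) and PRELP (0.85), and 5 fell without 26B and 80B. The other ACAN probe sets differed by 0.03 and -0.35, and with all 3 averaged ACAN was not called (0.15, adjusted p = 0.42). MATN1, a cartilage matrix linker, was not called (0.19, adjusted p = 0.356).

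Leukocyte genes were higher in the adult. Of 33 macrophage and monocyte genes 30 rose and 0 fell, both with and without the 2 arrays (median 2.08 and 2.36). The immunoglobulin receptor FCGR1A was 5.57, 5.59, 5.38, 5.46 and 5.84 in the fetal arrays and 9.35, 9.37, 8.87, 9.39 and 8.58 in the adult arrays and rose by 3.54 ± 0.16 (adjusted p = 2.75e-10). FABP4, a lipid chaperone of alveolar macrophages, was 5.30, 4.99, 5.49, 6.07 and 4.97 in the fetal arrays and 9.97, 9.84, 9.38, 9.03 and 9.70 in the adult arrays and rose by 4.22 ± 0.29. LAPTM5, TYROBP, CHI3L1 and FCGR2B rose by 2.51, 2.70, 2.79 and 4.21. The mean of this list was 8.18 in array 26B, 7.16 to 7.39 in the other fetal arrays and 9.24 to 9.54 in adults. MS4A7 (0.29, adjusted p = 0.144) and the metal transporter SLC11A1 (0.33, adjusted p = 0.302) were not called. Antigen presentation genes rose in 18 of 21 and fell in 0 (median 1.33). The class II chain BOLA-DRA was 9.42, 8.52, 9.26, 9.21 and 9.72 in the fetal arrays and 12.16, 12.24, 12.36, 12.22 and 12.41 in the adult arrays and rose by 3.05 ± 0.18, and BOLA-DRB3 and BOLA-DMA rose by 3.37 and 3.43. The peptide transporter TAP1 and the immunoproteasome subunit PSMB9 rose by 2.38 and 3.20. Probe sets for such polymorphic, similar genes were made for cattle and may not tell the sheep genes apart.

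T and NK cell genes rose in 28 of 38 measured and fell in 1 (median 1.0), and 26 rose and 1 fell without 26B and 80B. The T cell receptor subunit CD3E was 7.49, 7.60, 7.66, 6.72 and 8.03 in the fetal arrays and 10.66, 10.61, 10.75, 10.85 and 10.51 in the adult arrays and rose by 3.17 ± 0.18. The co-stimulator ICOS rose by 3.71, SH2D1A rose by 3.24, NKG7 of cytotoxic granules rose by 2.26 and NCR3 rose by 2.44. KLRB1 fell by 0.28, a call lost without adult AD-204, AD-286, AD-297 or AD-299 or without fetal 10A or 14B. B and plasma cell genes rose in 13 of 16 and fell in 0 (median 0.92), and 12 rose and 0 fell without 26B and 80B. JCHAIN, which joins secreted immunoglobulins, was 9.74, 9.75, 9.98, 9.98 and 9.81 in the fetal arrays and 12.75, 12.67, 12.48, 12.72 and 12.73 in the adult arrays and rose by 2.82 ± 0.10 (adjusted p = 4.26e-11). IGHM was 6.96, 6.85, 7.19, 7.46 and 7.03 in the fetal arrays and 12.22, 11.86, 12.02, 11.71 and 11.91 in the adult arrays, and the B cell receptor subunit CD79A rose by 3.63. Adult array AD-204 was the highest for the mean of the B cell list, at 7.79 against 7.20 to 7.30 in the other adults. The B cell marker MS4A1 was not called with all arrays (0.21, adjusted p = 0.169) and rose by 0.34 without 26B and 80B (adjusted p = 0.0362).

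Granulocyte genes parted. Of 20 measured 10 rose and 3 fell (median 0.76). CXCR1 was 3.85, 4.19, 4.04, 4.27 and 4.27 in the fetal arrays and 7.70, 10.19, 8.95, 9.20 and 9.97 in the adult arrays, a rise of 5.08 ± 0.35, and ALOX5AP of leukotriene synthesis and S100A12 rose by 3.64 and 2.74. The cathelicidin CATHL1, stored in granules of maturing neutrophils, went the other way. It was 9.27, 8.48, 8.96, 12.12 and 11.20 in the fetal arrays and 6.04, 5.91, 5.66, 5.16 and 5.29 in the adult arrays and fell by 4.39 ± 0.56, and it fell by 3.29 without 26B and 80B. PGLYRP1 and MMP9, which are granule proteins too, fell by 0.52 and 0.56, and the 3 falls were 1 without adult AD-287, adult AD-299 or fetal 14B. The PGLYRP1 call was also lost without AD-204, and the MMP9 call without AD-286, AD-297, 10A, 14A or 80B. MPO was not called (-0.39, adjusted p = 0.165).

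Complement and innate receptor genes rose in 24 of 43 and fell in 2 (median 0.96), and in 29 and 4 without 26B and 80B (median 1.22), and 4 also fell without 26B alone. The terminal component C7 was 8.07, 8.09, 8.23, 8.61 and 8.29 in the fetal arrays and 12.06, 11.74, 11.90, 11.54 and 11.79 in the adult arrays and rose by 3.55 ± 0.12 (adjusted p = 3.59e-11). The alternative pathway factors CFD and CFP rose by 3.81 and 2.84, and the receptor TLR4 by 1.94. CFI, a complement inhibitor, and MASP2 fell by 1.08 and 0.44. C3, which the liver also makes, read 9.96, 9.94, 10.06, 13.89 and 12.11 in the fetal arrays, and its rise of 2.57 became 3.77 without 26B and 80B. Interferon response genes rose in 21 of 34 and fell in 2 (median 1.01), and 23 rose and 2 fell without 26B and 80B. RSAD2 was 4.89, 4.82, 4.68, 5.16 and 4.55 in the fetal arrays and 7.41, 8.24, 8.11, 8.72 and 8.09 in the adult arrays, a rise of 3.29 ± 0.28, and IRF7, which drives interferon genes, rose by 2.16. IFI27 and XAF1 rose by 2.89 and 1.58, and IFIT5 and HERC5 fell by 0.59 and 0.57. OAS1X, an antiviral gene, was 0.11 with all arrays (adjusted p = 0.929) and 1.63 without 26B and 80B (adjusted p = 0.00103).

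Cytokine, chemokine and adhesion genes rose in 35 of 47 and fell in 2 (median 1.64), with 34 and 3 without the 2 arrays. CCL26, which attracts eosinophils, was 6.94, 6.92, 6.90, 7.31 and 7.28 in the fetal arrays and 12.05, 11.94, 11.79, 12.24 and 12.24 in the adult arrays (adjusted p = 2.50e-11). CCL3, which attracts macrophages, was 5.73, 5.08, 5.01, 6.56 and 5.51 in the fetal arrays and 10.96, 11.78, 10.95, 11.82 and 11.99 in the adult arrays. Both genes are among the largest rises above, which were ranked only among genes whose groups did not overlap. A second CCL3 probe set averaged 6.17 in fetal and 9.42 in adult lung, and a dim one 3.72 and 4.05. CCL4, CCL2 and the receptor CXCR6 rose by 4.73, 2.90 and 3.29. The adhesion molecule VCAM1 and the gut and thymus chemokine CCL25 fell by 1.51 and 0.58. The CCL25 set marks several transcripts, and without such sets CCL25 was not called (-0.27, adjusted p = 0.377) and 0 members of the list fell.

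Enzymes of detoxification and oxidant defence rose in 30 of 56 and fell in 7 (median 0.45, or 0.81 with 32 and 7 without 26B and 80B). CYP4B1 was 6.25, 6.45, 6.19, 5.71 and 6.33 in the fetal arrays and 10.75, 11.51, 11.07, 11.49 and 11.32 in the adult arrays (adjusted p = 3.59e-11). The flavin monooxygenase FMO1 rose by 4.18, CYP2S1 by 3.07, the extracellular superoxide dismutase SOD3 by 2.0 ± 0.10 and the glutathione peroxidase GPX2 by 3.91. The sulphotransferase SULT1B1 and the peroxiredoxins PRDX2 and PRDX4 fell by 1.26, 0.88 and 0.42. The metallothionein MT2A read 9.37, 8.58, 8.38, 13.81 and 12.88 in the fetal arrays, highest in 26B and 80B. It was -0.62 with all arrays (adjusted p = 0.6) and rose by 1.21 without those 2.

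Lipid genes rose in 13 of 49 and fell in 5 (median 0.10), beside 20.6% and 17.0% of all genes, and in 19 and 2 without 26B and 80B. Leaving out 1 adult array moved the falls to 2 (AD-286 or AD-297), 3 (AD-299) or 8 (AD-287). PPARG, a nuclear receptor of fat cells and alveolar macrophages, rose by 2.08, the lipid synthesis regulators SREBF1 and INSIG1 rose by 1.08 and 1.53, and the electron carrier ETFA fell by 1.47. Among 38 genes of glycolysis and hypoxia 16 rose and 5 fell, 14 and 5 without 26B and 80B, and 3 fell without adult AD-287 or AD-297. PDK4, which turns pyruvate away from oxidation, was 7.54, 6.97, 7.32, 9.44 and 7.95 in the fetal arrays and 11.71, 11.70, 11.21, 11.52 and 12.08 in the adult arrays, a rise of 3.80 ± 0.35. LDHA and PFKP rose by 1.17 and 1.45 and the vasodilator peptide ADM by 2.06. The glucose carrier SLC2A1, the lactate carrier SLC16A1 and PFKM fell by 1.37, 2.25 and 1.08. Of 73 oxidative phosphorylation genes 2 rose and 11 fell (median -0.01), beside 20.6% and 17.0% of all genes. Without 26B and 80B 10 rose and 7 fell, beside 21.6% and 20.4% of all genes. In this list 12 rose without 26B alone and 1 without adult AD-287. NDUFC2 and ATP5MC2 fell by 0.34 and 0.45 and COX4I1 rose by 0.49.

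Of 27 measured genes of the glucocorticoid and thyroid hormone list 14 rose and 3 fell (median 0.56), and 16 rose and 3 fell without 26B and 80B. CEBPD was 10.11, 10.15, 10.05, 10.49 and 10.13 in the fetal arrays and 12.15, 12.11, 12.20, 12.48 and 12.44 in the adult arrays and rose by 2.09 ± 0.12. The clock-linked factors HLF, NR1D1 and BHLHE40 rose by 2.28, 2.01 and 2.11. HSD11B2, which inactivates cortisol, was 6.38, 6.32, 6.65, 5.48 and 6.28 in the fetal arrays and 5.12, 5.04, 5.05, 5.37 and 5.40 in the adult arrays and fell by 1.02 ± 0.21, and the retinoid binder CRABP2 fell by 1.45. The glucocorticoid receptor NR3C1 was not called (0.24, adjusted p = 0.0853). Immediate early and heat shock genes, which can respond within minutes to handling of tissue, rose in 21 of 28 and fell in 1 (median 1.19), and 20 rose and 1 fell without 26B and 80B. ATF3 was 6.81, 6.68, 6.92, 8.07 and 6.79 in the fetal arrays and 10.71, 11.50, 10.95, 11.69 and 12.19 in the adult arrays and rose by 4.35 ± 0.31. ZFP36, NR4A1, CCN1 and JUNB rose by 3.85, 3.39, 2.98 and 2.56, and MYC fell by 0.75. The mean of this list lay between 11.06 and 11.55 in adults and between 9.65 and 9.95 in fetuses. Its part in the rise of cytokine genes was not tested.

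Genes of nerve and neuroendocrine cells fell in 9 of 26 and rose in 5 (median -0.005), beside 17.0% and 20.6% of all genes. When the 25% of genes with the lowest mean were left out, 4 fell and 3 rose. UCHL1 was 11.74, 11.67, 11.65, 10.13 and 11.63 in the fetal arrays and 7.74, 7.37, 7.86, 6.02 and 6.90 in the adult arrays and fell by 4.19 ± 0.34. SNAP25 was 9.49, 9.62, 9.71, 10.77 and 9.80 in the fetal arrays and 6.80, 6.04, 6.09, 5.61 and 5.88 in the adult arrays and fell by 3.80 ± 0.25. The secretory granule chaperone SCG5 and N-cadherin, CDH2, fell by 2.50 and 1.80, whereas STMN2, a microtubule regulator of growing axons, was 8.94, 8.40, 8.23, 6.52 and 7.56 in the fetal arrays and 11.46, 11.90, 12.03, 9.72 and 11.41 in the adult arrays and rose by 3.37 ± 0.49. Of 20 axon guidance genes 9 fell and 3 rose (median -0.33), and 3 rose and 11 fell without 26B and 80B. The ephrin EFNB3 was 10.43, 10.12, 10.32, 8.46 and 10.41 in the fetal arrays and 6.99, 6.35, 7.21, 6.63 and 6.43 in the adult arrays and fell by 3.23 ± 0.32, and the receptors ROBO1, ROBO2 and EPHA7 fell by 1.64, 1.69 and 1.27. The semaphorins SEMA6D and SEMA6A and the netrin NTN4 rose by 1.46, 0.92 and 1.52. Of 38 junction genes 9 rose and 6 fell, shares near the 20.6% and 17.0% of all genes. The counts were 7 and 9 without 26B and 80B, and 10 fell without 26B alone. CLDN3 and ITGB4 rose by 1.51 and 1.45, and CDH11 and ITGA2 fell by 1.31 and 1.05.

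Lists of other tissues that a piece of lung could hold gave mixed counts, beside 20.6% of all genes higher and 17.0% lower. Of 35 measured genes of heart and striated muscle 12 rose and 6 fell (median 0.17), and 13 rose and 6 fell without 26B and 80B. The myosin MYH7 of heart and slow muscle and the sarcomere anchor TCAP rose by 0.63 and 0.83, whereas MYH3, the myosin of embryonic muscle, was 7.40, 7.28, 7.83, 5.43 and 7.22 in the fetal arrays and 5.99, 4.40, 4.27, 5.29 and 5.38 in the adult arrays. Its groups overlapped through 26B, and it fell by 1.97 ± 0.40. The fast muscle troponin TNNT3 fell by 1.32. Of 12 genes of thymus, thyroid and oesophagus the keratin KRT5 rose by 1.16, a call lost without 26B and 80B and without 14B alone, while 3 fell, namely CCL25 and the enzymes DIO1 (by 1.21, or -0.64 without 26B and 80B) and IYD (by 0.54) of thyroid hormone and iodide. Of 12 kidney tubule genes 1, the urinary protein UMOD, rose by 0.56 and 0 fell, and the rise was not called without adult AD-286, AD-287 or AD-299 or without fetal 10A or 14B. In this list 2 rose without 26B and 80B. The mean of the kidney tubule list was 6.57 in 26B and 5.84 in 80B, against 5.26 to 5.42 in the other fetal arrays.

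Of 20 measured red cell genes 5 fell and 0 rose, with and without 26B and 80B, beside 17.0% and 20.4% of all genes that fell. Without 14B 8 fell. The median went from -0.67 to -0.07. The globin HBB was 13.50, 13.48, 13.51, 13.33 and 13.57 in the fetal arrays and 12.31, 9.91, 8.38, 9.91 and 10.28 in the adult arrays. It fell by 3.32 ± 0.55 (adjusted p = 2.28e-04), and adult array AD-204 stood above the other adults. The globin HBG was 11.24, 11.18, 11.21, 11.91 and 11.29 in the fetal arrays and 9.98, 7.93, 7.76, 7.89 and 8.18 in the adult arrays and fell by 3.02 ± 0.35. These globin sequences are alike, and both probe sets carry names that mark probes shared between transcripts, so the sheep globins may not be told apart. ALAS2, the first enzyme of haem synthesis in red cells, was 9.02, 8.97, 8.68, 12.79 and 11.16 in the fetal arrays and 6.49, 5.33, 5.56, 5.49 and 5.29 in the adult arrays, and it fell by 4.49 with all arrays and fell by 3.26 without 26B and 80B. AHSP, the alpha globin chaperone, was 8.77, 7.51, 7.72, 12.51 and 12.40 in the fetal arrays and 7.29, 5.92, 5.68, 5.63 and 5.64 in the adult arrays, and it fell by 3.75 with all arrays and fell by 1.97 without those 2. HBM fell by 2.26 and was -0.49 without them (adjusted p = 0.0645), and its call was lost without 26B, 80B or any 1 adult array. Genes of red cell precursors were also brightest in 26B and 80B. GATA1 read 5.24, 5.08, 5.09, 10.09 and 7.0 in the fetal arrays and 5.31, 5.49, 5.65, 5.33 and 5.52 in the adults, and TRIM10 4.24, 4.41, 4.59, 9.20 and 6.38 and 4.08, 4.34, 4.11, 4.02 and 3.56. Neither was called (-1.04, adjusted p = 0.279, and -1.74, adjusted p = 0.0623). Without 26B alone TRIM10 was called at -0.88 (adjusted p = 0.0392), and without 10A, 14A or 14B it was called at -2.04 to -2.12. It was also called after centring (-1.83), while without 26B and 80B it was -0.39 (adjusted p = 0.0546). The 15 members that were not called had changes from -1.74 to -0.08.

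Of the 80 liver genes 21 fell and 6 rose with all arrays (median -1.04), beside 17.0% and 20.6% of all genes. Without 26B and 80B 17 fell and 12 rose (median -0.05), beside 20.4% and 21.6% of all genes. With single arrays left out, the falls were 12 without 80B or adult AD-297 and 13 without adult AD-299. The largest changes that were called with 5 fetal arrays and not with 3 were in HRG (-2.90 and -0.55), APOH (-3.62 and -1.65), SERPINA7 (-3.33 and -0.68), FABP1 (-3.0 and -0.69) and ITIH3 (-2.96 and -0.75). Each of these calls but that of APOH was also lost when 26B, 80B, AD-286, AD-287, AD-297 or AD-299 alone was left out. HRG, a plasma glycoprotein, read 6.18, 5.83, 5.17, 12.71 and 10.49 in the fetal arrays and 4.76 to 5.54 in adults. A few genes of the list rose in adult lung whichever arrays were used: haptoglobin HP by 3.40 with 5 and 4.33 with 3, the alcohol dehydrogenase ADH4 by 2.72 and 3.50, and CYP27A1, which acts on sterols in many tissues, by 1.06 and 1.14. Transferrin (TF) was bright in all arrays and not called (-0.81, adjusted p = 0.221). It read 12.11, 11.44, 11.2, 14.27 and 13.97 in the fetal arrays and 12.34, 11.75, 11.77, 11.89 and 11.2 in the adult arrays. Without 26B and 80B the sign of its change turned, with the adult mean the higher.

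**Figure D4:**
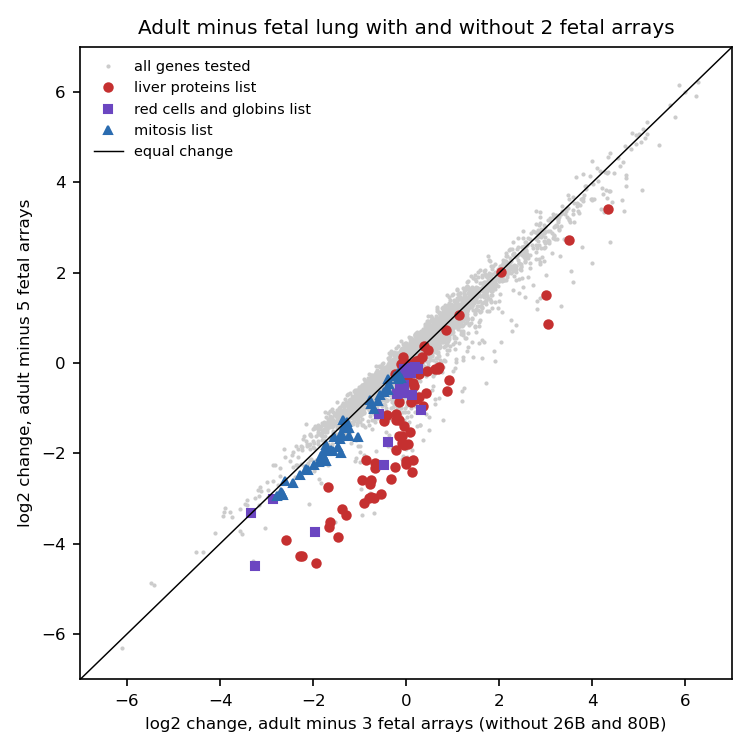
Log2 change of each gene, adult minus fetal lung, with all 5 fetal arrays (vertical axis) against the change without 26B and 80B (horizontal axis). Red circles are the liver list, purple squares the red cell list, blue triangles the mitosis list, and the line marks equal changes. Liver genes such as HRG lie far under the line (-2.90 against -0.55), while the mitosis list's median is -1.67 against -1.42.

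The change from fetus to adult was then set against that in kidney, where 5 adult and 5 fetal arrays of the same series were available. The 2 changes differed in 2659 genes (29.0%), 1526 with the higher change in lung (16.7%) and 1133 with the lower (12.4%). Of these 1671 were also called in lung, and 303 were called in opposite directions in the 2 organs, 179 of them higher in adult lung and lower in adult kidney. Without fetal lung arrays 26B and 80B the 2 changes differed in 2807 genes, 1531 with the higher and 1276 with the lower change in lung. UCP3, PON1, LPO, CCL3 and SPINK1 had the largest differences upward beside CRABP1, leaving aside symbols that are only identifiers. UCP3 changed by -0.05 in kidney against 6.23 in lung, a difference of 6.28 ± 0.29 (adjusted p = 3.62e-15). PON1 and LPO changed by 0.24 and 0.44 in kidney, CCL3 by 0.35 and SPINK1 by -1.26. The retinoid binder CRABP1 fell in kidney, from 11.72 ± 0.13 to 5.78 ± 0.33 (SD, n = 5), and changed by 0.56 in lung, where it was not called, a difference of 6.50. The organic anion transporter SLC22A6 rose from 4.94 ± 0.25 to 11.22 ± 0.60 in kidney and was 4.47 to 4.74 in fetal and 4.54 to 4.96 in adult lung, a difference of -6.11. The other largest downward differences were in liver genes: APOC3 (-5.92), SERPINA1 (-6.29), HRG (-9.41), TTR (-7.15) and LECT2 (-6.92). HRG was already 1 of the genes whose call in lung was lost without 26B and 80B. Without these arrays the 5 differences were -4.58, -5.23, -7.06, -5.53 and -4.73. HRG changed by -2.90 in lung, or -0.55 without 26B and 80B, so most of its difference was an increase from fetal to adult kidney. For APOC3 the larger part was its fall in lung.

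DLK1 fell by 6.31 in lung and changed by -0.99 in kidney, a difference of -5.32 ± 0.35 (adjusted p = 2.09e-12). IGF2BP1 differed as well (-3.14 in lung, -1.59 in kidney, adjusted p = 3.66e-06), and MEST in the other direction (-2.85 and -5.58, adjusted p = 6.06e-09). Over the lists, the difference was called for 26 of 33 macrophage genes with the higher change in lung and 1 with the lower (median difference 2.11). It was called for 27 and 2 of 47 cytokine genes and 22 and 4 of 44 matrix genes (median differences 1.07 and 0.75). Of 46 mitosis genes 12 had the higher change in lung and 1 the lower (median difference 0.24), and of 22 members of the imprinted list 5 and 6.

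**Figure D5:**
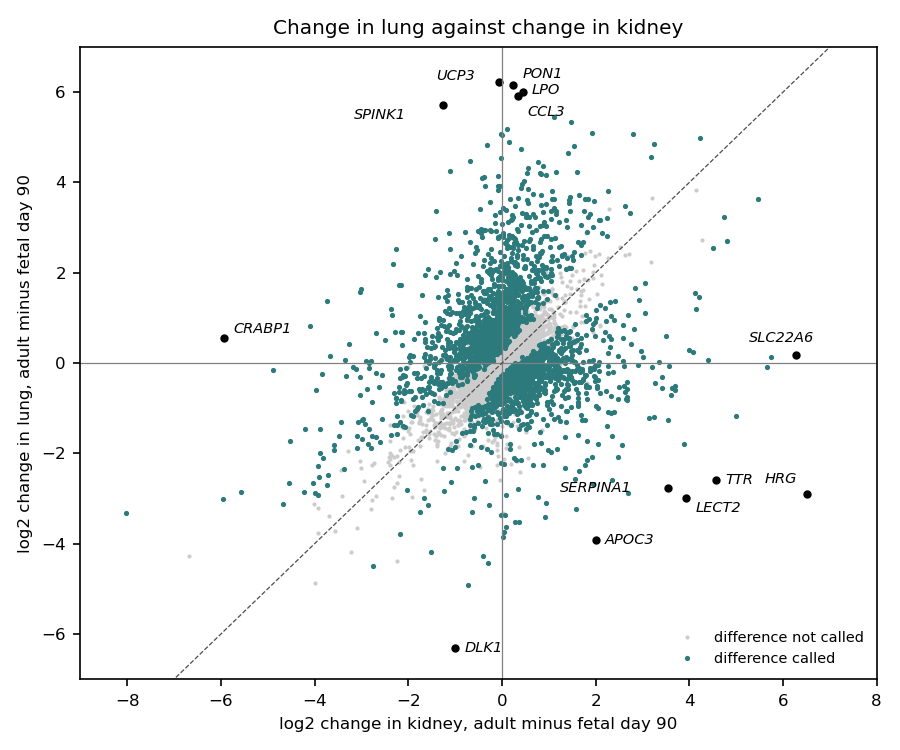
Log2 change of each gene from fetal day 90 to adult in lung (vertical axis) against that in kidney (horizontal axis), teal where the difference between organs was called and grey where it was not, with 13 genes named and a dashed line of equal changes. UCP3 lies at 6.23 in lung and -0.05 in kidney, CRABP1 at 0.56 and -5.94, and SLC22A6 at 0.17 and 6.28.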

How the data were processed

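The 30 arrays were of sheep lung and kidney, hybridised to an Affymetrix bovine expression array. The authors deposited log2 expression values per probe set, made with RMA in Partek, per the submitters' processing notes; versions are not given in the sources used here. Of 24128 probe sets, 112 controls were left out, 13318 have 1 gene symbol in the platform annotation, 86 several and 10724 none. A single set was used per gene, the brightest over all 30 arrays, which gave 9155 genes, 8492 of them with a symbol in the RefSeq sheep table. All 30 columns were matched to samples by title, and 0 were left unmatched.

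The 15 lung arrays were fitted with limma 3.58.1 (lmFit and eBayes, R 4.3.3), and adult minus fetal day 90 was tested with Benjamini-Hochberg adjustment over all genes at 0.05. The difference between lung and kidney changes was fitted on all 30 arrays. Tables and figures used Python 3.11.15 with pandas 2.3.3, numpy 2.4.6, scipy 1.17.1 and matplotlib 3.10.9, and the tests were tried on simulated data. Arrays have no read depth, so the number of arrays limits the precision. No probe set was filtered on level.

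Genes were named by a rule. It took the 15 largest rises and falls that did not overlap and held without 26B and 80B, leading and uncalled members of 40 lists, all members of 4 lists, the 6 largest differences from kidney each way, and 8 large changes not called without 26B and 80B. Not all of the 443 genes it gave are printed. AFP and AGER are outside it and were named after their values were seen. The comparison and the lists were chosen with earlier results of these data known. Alternatives changed the probe sets, centring, normalization, variance model, weights, threshold and arrays used. Promoter sequences were not analysed here.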

Additional observations from a re-analysis of the deposited data

Results flagged for a closer look

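An array stood apart in 99 of 632 groups of 5 arrays tested (each named gene and each list mean, fetal or adult), by its gap to the nearest other array relative to the range of the group. Chance gives about 1 in 20 such groups. Array 26B was the array in 75, and 78 were fetal groups.

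Array 26B was the lowest fetal array, with its log2 level and that of the next array given, for AGER (9.08, next 10.90), AQP1 (6.94, next 7.33), AQP4 (7.28, next 8.74), CCDC39 (3.90, next 5.44), CCN1 (8.47, next 9.02), CD34 (10.50, next 10.72), CDH11 (11.05, next 12.19), CNMD (8.12, next 9.98) and CNN1 (7.84, next 9.14). Also so were COL1A1 (12.44, next 13.37), COL1A2 (12.54, next 13.04), COL2A1 (8.99, next 11.37), COL3A1 (12.59, next 13.09), COL4A1 (11.05, next 11.75), CYP2S1 (5.63, next 6.58), DCN (10.50, next 11.57), DNMT3A (11.24, next 11.83) and EFEMP1 (9.96, next 11.70). The same held for EFNB3 (8.46, next 10.12), FGF10 (5.83, next 7.15), FOXP1 (11.77, next 12.54), HERC5 (4.79, next 5.56), ICOS (5.87, next 6.65), JAG1 (11.32, next 12.32), LAMP3 (6.38, next 8.01), MDK (10.55, next 12.19) and MYH3 (5.43, next 7.22). Likewise apart were NUDT11 (6.86, next 8.46), PRELP (7.59, next 8.31), PRSS8 (7.61, next 9.21), SCG5 (6.34, next 7.64), SFTA2 (7.04, next 8.77), SFTPB (8.20, next 9.75), SFTPC (9.30, next 10.98), SLC12A2 (5.70, next 7.63) and SMO (9.41, next 10.48). Further such genes were SPARC (11.42, next 11.99), TFF3 (8.90, next 10.50), TGFB3 (8.52, next 10.53), UCHL1 (10.13, next 11.63) and VCAN (10.85, next 12.02).

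Array 26B was the highest fetal array for ADH4 (9.84, next 7.57), ATF3 (8.07, next 6.92), CEBPD (10.49, next 10.15), CFD (10.55, next 8.54), CFP (8.30, next 6.87), CLCN3 (6.89, next 6.04), CTSL (5.39, next 4.15), DIO1 (7.76, next 5.52) and HBG (11.91, next 11.29). Also so were INSIG1 (10.93, next 10.01), IYD (8.17, next 7.50), KIF2C (6.90, next 6.21), NR4A1 (7.07, next 6.15), PFKM (9.64, next 8.24), PRDX2 (13.14, next 12.21), SCNN1A (7.73, next 7.05), SLC16A1 (11.80, next 9.96) and SNAP25 (10.77, next 9.80). The same held for TYROBP (9.08, next 8.19).

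Over lists, array 26B had the lowest fetal mean log2 level for surfactant and alveolar type II cells (7.44, next 7.84), capillary and general endothelium (7.92, next 8.39), lung branching and morphogen signalling (8.43, next 9.42), fibrillar collagen and elastic fibre (9.06, next 9.98), cartilage (6.51, next 6.94), cell junctions and polarity (8.24, next 8.58) and axon guidance and neural-type receptors (7.38, next 8.14). It had the highest for fetal growth regulators and IGF axis (9.29, next 9.04), DNA replication (9.10, next 8.46), mesothelium (9.14, next 8.61), macrophages and monocytes (8.18, next 7.39), interferon response (7.19, next 6.75), thymus, thyroid and oesophagus (6.09, next 5.61), glycolysis and hypoxia response (9.53, next 9.27) and fatty acid and lipid metabolism (9.15, next 8.57).

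Adult array AD-204 was the highest adult array for AHSP (7.29, next 5.92), ALAS2 (6.49, next 5.56), APOH (8.59, next 6.31), COL1A1 (12.40, next 11.87), CPS1 (5.10, next 4.19), CRABP2 (6.90, next 6.33), FABP1 (5.98, next 4.76), HBG (9.98, next 8.18), ITIH3 (7.46, next 6.28), SERPINA7 (5.05, next 3.74), B and plasma cells (7.79, next 7.30) and liver proteins (6.58, next 6.34). Adult array AD-204 was the lowest adult array for UMOD (5.21, next 5.93). Adult array AD-286 was the lowest for NID2 (7.0, next 7.50). Adult array AD-287 was the highest for LPO (11.77, next 10.63). Adult array AD-297 was the highest for MAGEL2 (8.22, next 7.64) and surfactant and alveolar type II cells (9.06, next 8.96). Adult array AD-297 was the lowest for HNRNPL (8.04, next 8.53) and STMN2 (9.72, next 11.41). Adult array AD-299 was the highest for cytokines, chemokines and adhesion (8.14, next 8.06). Adult array AD-299 was the lowest for RFC3 (8.20, next 8.56). Fetal array 80B was the highest for PEG10 (11.18, next 10.84) and lung liquid and ion transport (7.77, next 7.68). Fetal array 80B was the lowest for FBL (11.56, next 11.82).

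The change from fetus to adult differed between lung and kidney in 2659 genes, by the test of the difference itself. The lung change minus the kidney change, in log2, was 6.28 for UCP3, 5.92 for PON1, 5.56 for LPO, 5.57 for CCL3, 6.96 for SPINK1, 6.50 for CRABP1, -6.11 for SLC22A6, -5.92 for APOC3, -6.29 for SERPINA1, -9.41 for HRG, -7.15 for TTR, -6.92 for LECT2, -5.32 for DLK1, -1.55 for IGF2BP1 and 2.73 for MEST.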

How the results depend on the processing

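No paired analysis was possible for the lung comparison because adult and fetal lungs share no title number, and a random block for the number that 14A and 14B share could not be fitted. For the difference from kidney, lung and kidney arrays of the same age and full title label were also fitted as a replicate block. This gave 2766 genes in place of 2659. Adult lung and adult kidney arrays share no title label, so no adult arrays were paired. The 3444 calls were 3009 to 4088 with 1 array left out, highest without 26B. With array quality weights 2448 genes were lower (4992 called), and with a log2 change of at least 1 added 1192 were called, 759 higher and 433 lower. No other count of called genes over the 9155 moved by more than 1.5 times. The 4 alternatives without 26B and 80B were chosen after seeing the data: also without 14B, also without multi-transcript probe sets, with the compared arrays alone, and centred.

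These single genes changed sign, beside TF, which did so without 26B and 80B. Without 26B and 80B, GATA1 was 0.33 and MT2A 1.21, and both values also held without multi-transcript sets and with the compared arrays alone. Also without 14B, GATA1 was 0.30, MT2A 1.01 and CRABP1 -0.00207. After centring too, GATA1 was 0.25 and MT2A 1.13, and with array weights 0.14 and 0.92. Without multi-transcript sets and without both arrays, AFP was 0.0124, IGF2 0.0919 and DMBT1 -0.0408 (-0.0634 with 5 fetal arrays). Averaging all probe sets gave -0.11 for CFTR and -0.10 for NR3C1. With 14A and 14B averaged, ALB was 0.0296, COL4A4 0.0288 and OAS1X -0.34. With 1 array left out, MT2A ranged from -1.18 to 0.18, ALB from -0.0787 to 0.0375, COL4A4 from -0.27 to 0.0478 and OAS1X from -0.35 to 0.88.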
